A study of Mus musculus with 16 samples.

Results

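The growth hormone and IGF axis of the liver was followed through 10 genes, chosen by name for their role in growth hormone signalling: the receptor Ghr, the signal transducers Stat5a and Stat5b, the feedback inhibitors Socs2 and Cish, the hormone Igf1, its serum carrier subunit Igfals, and the binding proteins Igfbp2, Igfbp3 and Igfbp4. All 10 genes were among the 54752 of the deposited count table, and all 10 were among the 17833 genes that passed the filter on low counts. RNA was sequenced from snap-frozen liver of 16 male Ercc1 d/- mice aged 11 weeks, which carry 1 truncated and 1 null allele of the DNA repair gene Ercc1, age prematurely, and are F1 hybrids of C57BL6J and FVBN. From 8 weeks of age, 4 animals each ate a high-protein, low-carbohydrate diet (protein about 194% and carbohydrate 70% of the standard), a low-protein, high-carbohydrate diet (70% and about 112%), a low-fat, high-carbohydrate diet (fat 70%, carbohydrate about 112%) or the AIN93G control diet on which all had been reared. Diets matched each other in calories, food was freely available, and the series title names high protein intake as the question. Every group carries the repair defect and no wild-type mouse was part of the comparison, so the values describe diet within this progeroid model.

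Growth hormone from the pituitary binds its receptor on hepatocytes, and the receptor-bound kinase then phosphorylates STAT5 proteins, which enter the nucleus and activate genes that carry their binding motif. Among these are Igf1, which the liver releases into blood, and Igfals, whose product holds IGF1 in a large circulating complex with IGFBP3. Cish and Socs2 are also induced by STAT5, and their proteins damp signalling from the receptor. In male mice growth hormone arrives in pulses, and the pulsed pattern maintains male-typical expression of many liver genes.

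The STAT5 binding motif TTCNNNGAA reads the same on both strands, and it was searched in RefSeq promoter windows of build GRCm38.p6, each running from 250 bases before to 50 bases after a start site. Of 32851 windows in that table, 8.30% held at least 1 motif and 0.457% held 2 or more. Among the 9 members matched to the table (all but Socs2), Cish and Igfals held the motif, and the windows of Ghr, Stat5a, Stat5b, Igf1, Igfbp2, Igfbp3 and Igfbp4 did not. The matches are shown because they are the regulatory letters through which STAT5 is known to act, with each motif in capitals. In Cish 2 motifs start at positions 1 and 12 counted from the RefSeq start, 11 bases apart, at chr9:107296655-107296682 on the plus strand.
Cish: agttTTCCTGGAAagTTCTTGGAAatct
In Igfals, 2 of 3 windows held 1 motif each on the plus strand, at position -236 from one start (chr17:24877599-24877626) and at position -58 from another (chr17:24878164-24878191).
Igfals, upstream match: atctataatTTCTCAGAAaagaggctga
Igfals, downstream match: tgccaggtgTTCCTAGAAgaggccctgg
A match describes letters and is not a measured binding site.

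Libraries held 35243594 to 112789127 counts, with low fat 2 the deepest. Control 4 stood farthest from its diet, its log2 levels differing from those of the other controls with an SD of 1.29 across genes, while the same SD was 0.433 to 1.01 for the other 15 libraries. Results against control are therefore given with and without control 4. Hepatocyte markers were abundant in all 16 libraries, with 7 measured markers summing to 59189 to 111378 CPM (depth-scaled read counts, here with TMM-scaled library sizes). Kidney markers were also present: the sum of 14 measured genes lay between 0.446 and 1227 CPM in high-protein libraries, between 529 and 1002 CPM in low-protein libraries, between 809.7 and 2306 CPM in low-fat libraries and between 76.6 and 3633 CPM in controls. Control 3 was the highest library and high protein 1 the lowest of all. In bulk tissue a smaller number of cells of a type and less RNA per cell cannot be told apart.

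Positions given with each gene are those of build GRCm38. Levels of the 10 genes spanned more than 2 orders of magnitude. On the length-scaled TPM scale, the median over 16 libraries was highest for Igfbp4 (857 TPM), followed by Igfbp2 (330 TPM), Igf1 (112 TPM), Ghr (98.3 TPM) and Igfals (51.4 TPM). Stat5b followed at 21.0 TPM, Igfbp3 at 14.3 TPM, Socs2 at 8.32 TPM, Cish at 7.32 TPM and Stat5a at 3.67 TPM. Igfbp2 (198 to 763 TPM over the libraries) lay wholly above Igf1 (99.5 to 144 TPM), and its range met that of Igfbp4 (657 to 1155 TPM) through control 4 alone. The other neighbours in this order overlapped, as Igf1 did with Ghr (18.5 to 127 TPM).

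**Figure D1:**
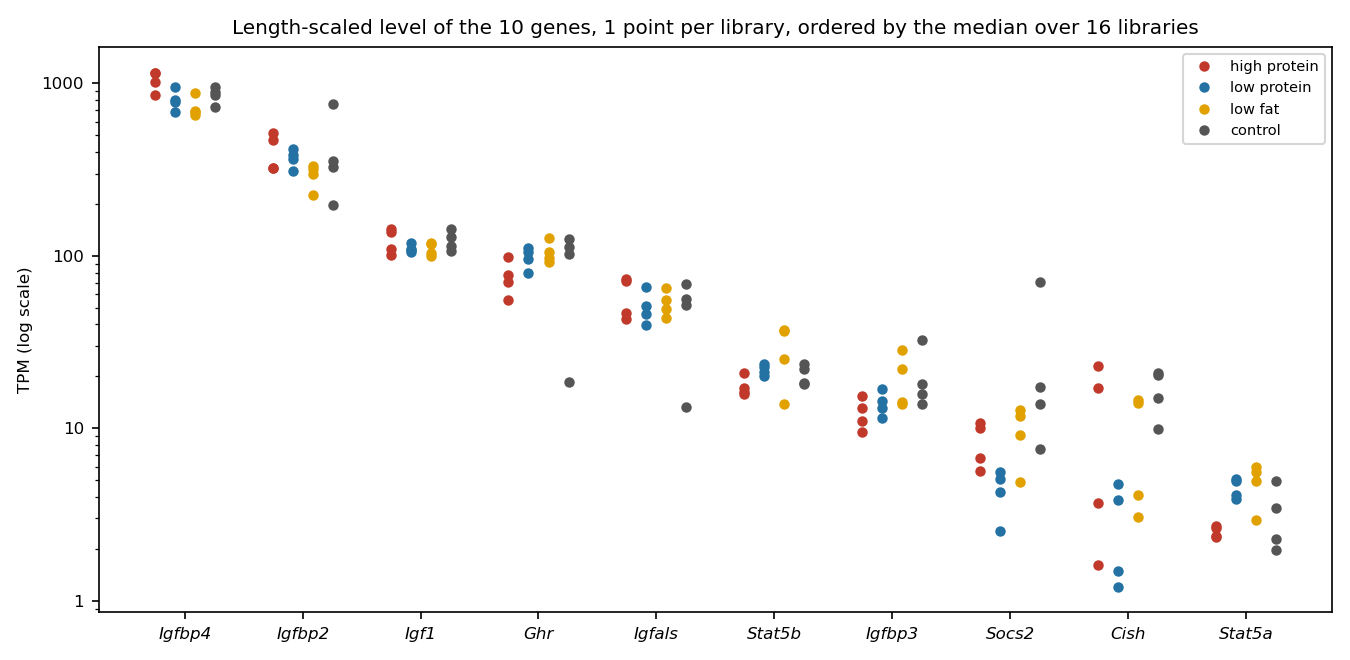
Level of each gene in TPM on a log scale, with 1 point per library coloured by diet and genes ordered by their median over 16 libraries. Igfbp4 lies highest at a median of 857 TPM and Stat5a lowest at 3.67 TPM, and the points of Socs2 and Cish are the most widely spread.

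Across all 17833 genes, edgeR's quasi-likelihood test with Benjamini-Hochberg adjustment called no gene at an adjusted p under 0.05 in any of the 6 pairs of diets, nor in the test of all diets together, and so none of the 10 members. What follows therefore gives values, their spread, adjusted p-values and counts at an unadjusted p, read against the share of all genes with the same property. Before adjustment, p was under 0.05 for 2 of 10 members between high protein and control (Socs2 and Igfbp3), against 1109 genes or 6.22% of all, and without control 4 for 3 other members (Ghr, Igfbp2 and Igfbp4) against 8.79% of all. Between low protein and control it was under 0.05 for 3 members (Socs2, Cish and Stat5a) against 1262 genes or 7.08%, and without control 4 for 2 members (Socs2 and Cish) against 3.65%. Between low fat and control the members were 2 (Socs2 and Stat5a) against 1644 genes or 9.22%, and without control 4 there were 0 against 5.57%.

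High and low protein differed at that level in 3 members (Stat5a, Igfbp4 and Cish) against 922 genes or 5.17%. High protein and low fat did so in 3 members (Igfbp4, Stat5a and Stat5b) against 1620 genes or 9.08%, and low fat and low protein in 1 (Cish) against 425 genes or 2.38%. Over all diets there were 4 (Socs2, Stat5a, Igfbp4 and Cish) against 1175 genes or 6.59%. Leaving control 4 out of the shared fit raised both the number of members and the share of all genes. There were then 4 members between high and low protein (Socs2 added) against 11.1% of all genes, 7 between high protein and low fat (Ghr, Igf1, Igfbp2 and Igfbp3 added) against 17.1%, 2 between low fat and low protein (Socs2 added) against 5.06%, and 5 over all diets (Igfbp2 added) against 10.9%. DESeq2 called 1, 10, 4, 25, 81 and 0 genes in the 6 pairs and 79 over all diets, among them Socs2 between low protein and control, Igfbp4 between high protein and low fat, and Socs2 over all diets.

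**Figure D2:**
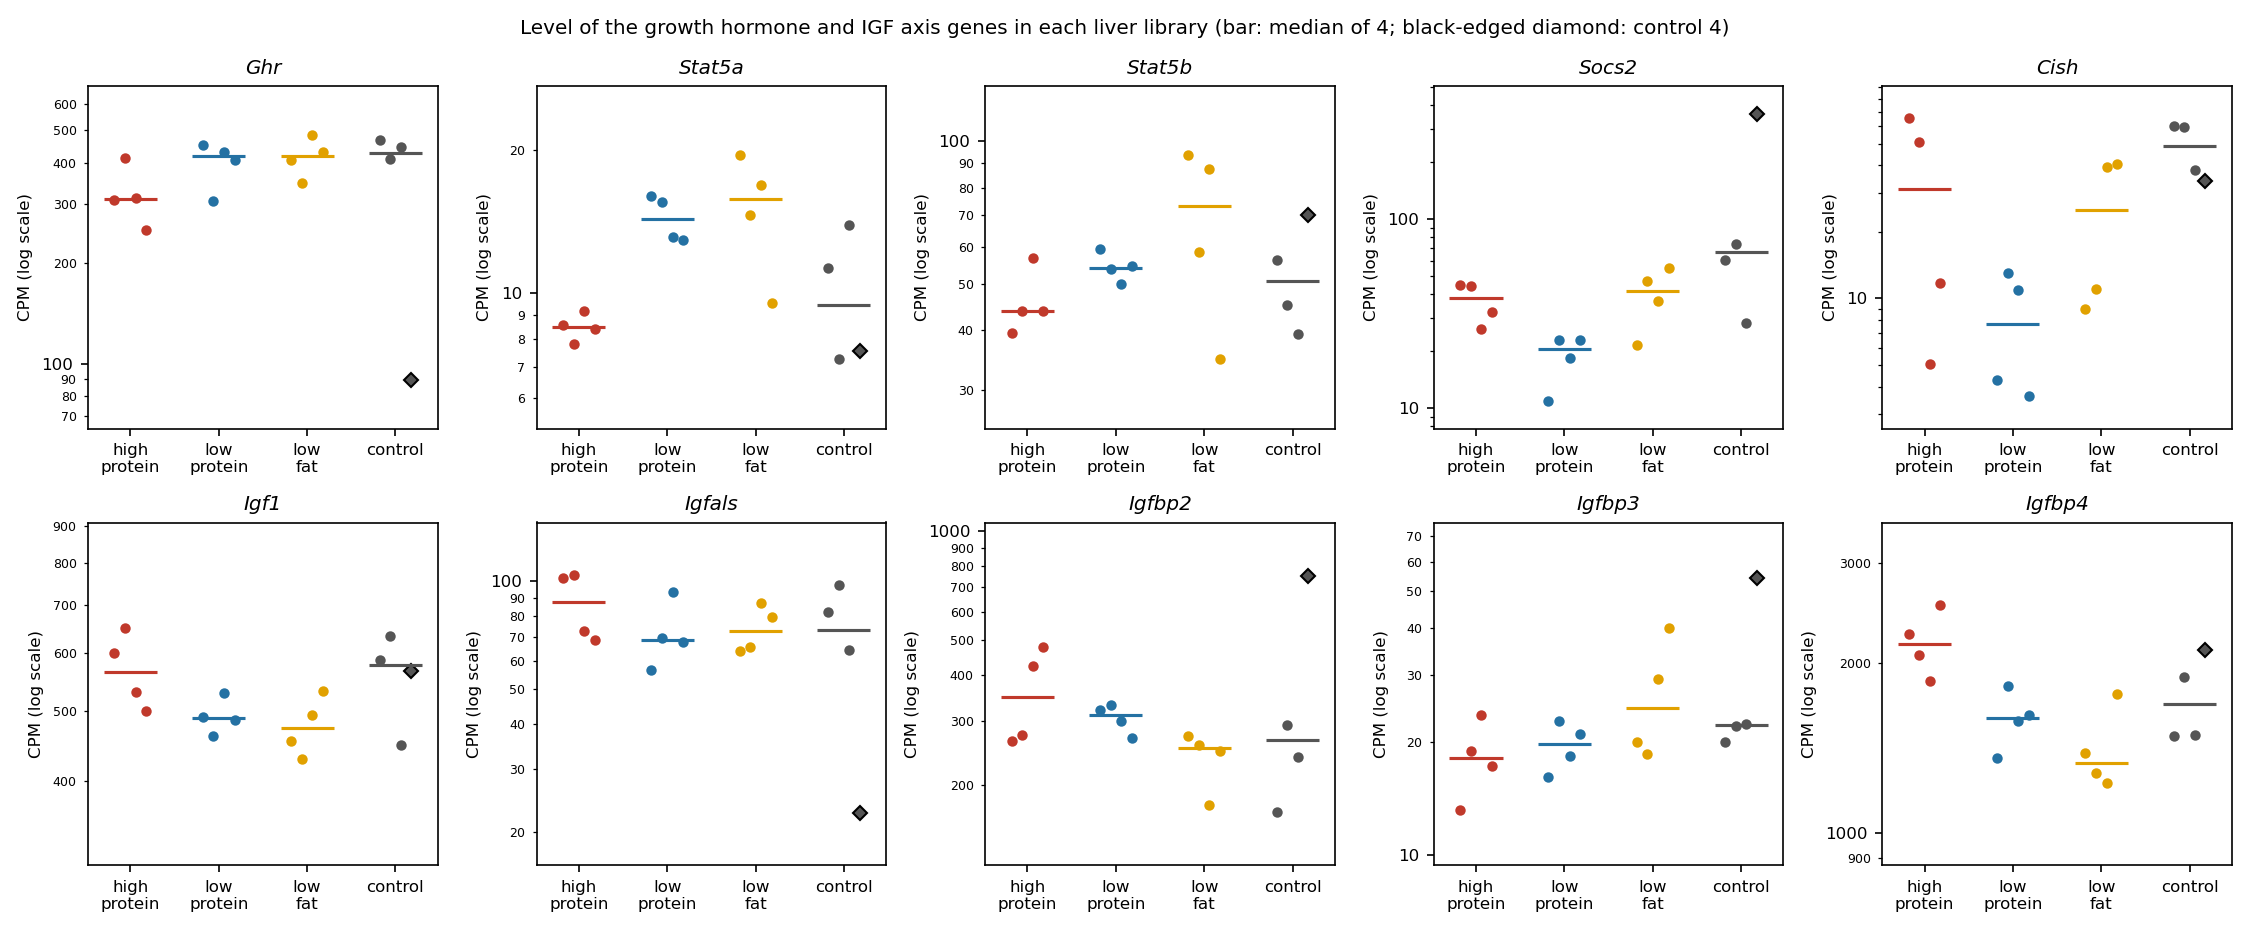
Level of each of the 10 genes in CPM on a log scale, with 1 point per library and a bar at the median of 4 for each diet. Control 4 (black-edged diamond) is the lowest library for Ghr and Igfals and the highest for Socs2, Igfbp2 and Igfbp3, and for Cish and Socs2 all low-protein points are below all control points.

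The feedback inhibitors Cish and Socs2 showed the widest differences of the 10, and both were lower with low protein than in control in every library. Socs2 (ENSMUSG00000020027.18, chromosome 10, 95385362 to 95417180), a cytokine signalling suppressor whose loss causes gigantism in mice, had 44.9, 44.0, 26.2 and 32.2 CPM with high protein and 10.9, 22.9, 18.3 and 22.8 CPM with low protein. It had 21.5, 46.8, 36.6 and 55.2 CPM with low fat, and 60.5, 73.3, 28.3 and 361 CPM in control. The low-protein libraries all lay below the 4 controls, whereas the high-protein and low-fat libraries overlapped the control range through control 3.

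Socs2 averaged 18.7 ± 5.62 CPM with low protein and 131 ± 155 CPM in control (SD, n = 4 each), and control 4 supplies much of that control spread. The edgeR log2 fold change of low protein over control was -2.80 ± 0.61 (SE), with an adjusted p of 0.682. Without control 4 it was -1.55 ± 0.35 at an adjusted p of 1.00, and the 2 groups still did not overlap. DESeq2 gave -2.82 with an adjusted p of 0.00269, and over the alternatives tried the adjusted p ran from 0.00269 to 1.00. Limma-voom with sample quality weights gave a log2 fold change of -1.77. With the kidney marker sum as a covariate it was -2.68.

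High protein over control gave a Socs2 log2 fold change of -1.83 ± 0.59 (adjusted p = 0.762), and low fat over control gave -1.71 ± 0.59 (adjusted p = 0.530). Both shrank without control 4, to -0.56 ± 0.35 and -0.46 ± 0.35. High over low protein gave 0.97 ± 0.58 (adjusted p = 0.970). All high-protein libraries lay above all low-protein libraries in CPM, a property of 3.15% of all genes, and the same held for Igfbp4 in CPM. Low fat over low protein gave 1.10 ± 0.58 (adjusted p = 1.00), with overlap. Leaving control 4 out of the shared fit gave 0.98 ± 0.33 for high over low protein and 1.08 ± 0.33 for low fat over low protein. In the test over all diets Socs2 had the smallest p of the members, at an adjusted p of 0.656.

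Cish (ENSMUSG00000032578.7, chromosome 9, 107296026 to 107302784), the founding member of the same inhibitor family, had 65.2, 50.8, 5.06 and 11.8 CPM with high protein and 4.29, 13.0, 11.0 and 3.62 CPM with low protein. It had 8.99, 11.1, 39.4 and 40.7 CPM with low fat and 60.2, 59.7, 38.0 and 34.1 CPM in control. The 16 libraries left a gap between 13.0 and 34.1 CPM: 8 libraries lay below it (2 high-protein, 4 low-protein, 2 low-fat and no control) and 8 above it (2 high-protein, no low-protein, 2 low-fat and 4 control). High protein 1 and 2 were thus as high as control, and high protein 3 and 4 as low as low protein.

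Between low protein and control, Cish averaged 7.98 ± 4.73 CPM with low protein and 48.0 ± 13.9 CPM in control (SD, n = 4 each), a log2 fold change of -2.58 ± 0.73 with an adjusted p of 0.682. Without control 4 the Cish value was -2.73 ± 0.76, at an adjusted p of 1.00. DESeq2 gave -2.61 with an adjusted p of 0.0685 (0.0685 to 1.00 over the alternatives), and with the kidney marker sum as a covariate edgeR gave -2.44. Libraries of low protein that all lie below control were found for 2 of 10 members, Cish and Socs2, and for 0.869% of all genes, or 1.7% without control 4. No member had libraries that did not overlap between high protein and control, against 1.96% of all genes, or between low fat and control, against 2.59%. High over low protein gave a Cish log2 fold change of 2.06 ± 0.71 (adjusted p = 0.921) and low fat over low protein 1.64 ± 0.70 (adjusted p = 1.00), both with overlapping libraries. Differences from control were -0.53 ± 0.68 for high protein and -0.94 ± 0.69 for low fat. The counting's strand setting is not given, and 4.07% and 7.46% of Cish exon bases lie opposite the exons of Gm17040 and Gm17041, which had at most 78 and 0 counts in a library.

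**Figure D3:**
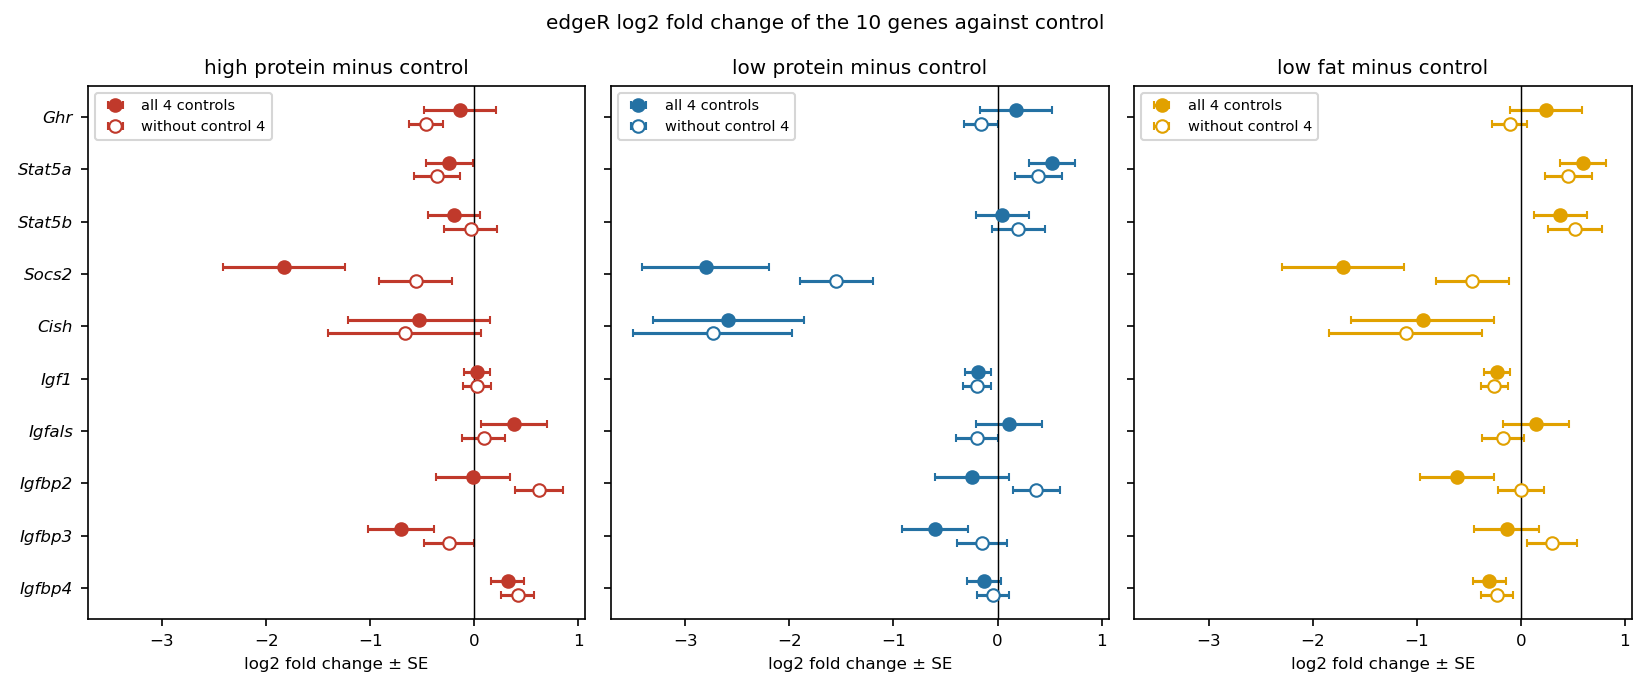
EdgeR log2 fold change with its SE for the 10 genes in each diet over control, with all 4 controls (filled) and without control 4 (open). Low protein over control is -2.80 for Socs2 and -2.58 for Cish, and leaving out control 4 moves Socs2 to -1.55 and Cish to -2.73.

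Within a diet, Cish and Socs2 were also among the most variable of the genes with a mean of at least 5 CPM. The within-diet SD of log2 CPM was 1.17 for Cish and 0.883 for Socs2, larger than in 97.8% and 95.6% of 9925 genes with a mean of at least 5 CPM, whose median was 0.263. Without control 4 these SDs were 1.21 and 0.546, beside a median of 0.195. The highest library exceeded the lowest 33.1-fold for Socs2 and 18.0-fold for Cish, whereas for Igf1 the ratio was 1.51. Igf1 had a within-diet SD of 0.159, and 13.7% of those genes were less variable, or 35.3% without control 4. For Igfbp4 the SD was 0.215, and 34.2% were less variable, or 52.2% without control 4.

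Cish and Socs2 gave Spearman's rho = 0.74 over the 16 libraries (permutation p = 0.0013, adjusted over 45 pairs of members 0.0195) and Pearson's r = 0.61 (permutation p = 0.00667, adjusted 0.06). Without control 4 and low protein 1, the libraries farthest from the median of Socs2, r was 0.74. After removing diet means r was 0.24 (permutation p within diets 0.187, adjusted 0.378), and 0.58 without control 4. Cish values fell on either side of the gap described above.

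**Figure D4:**
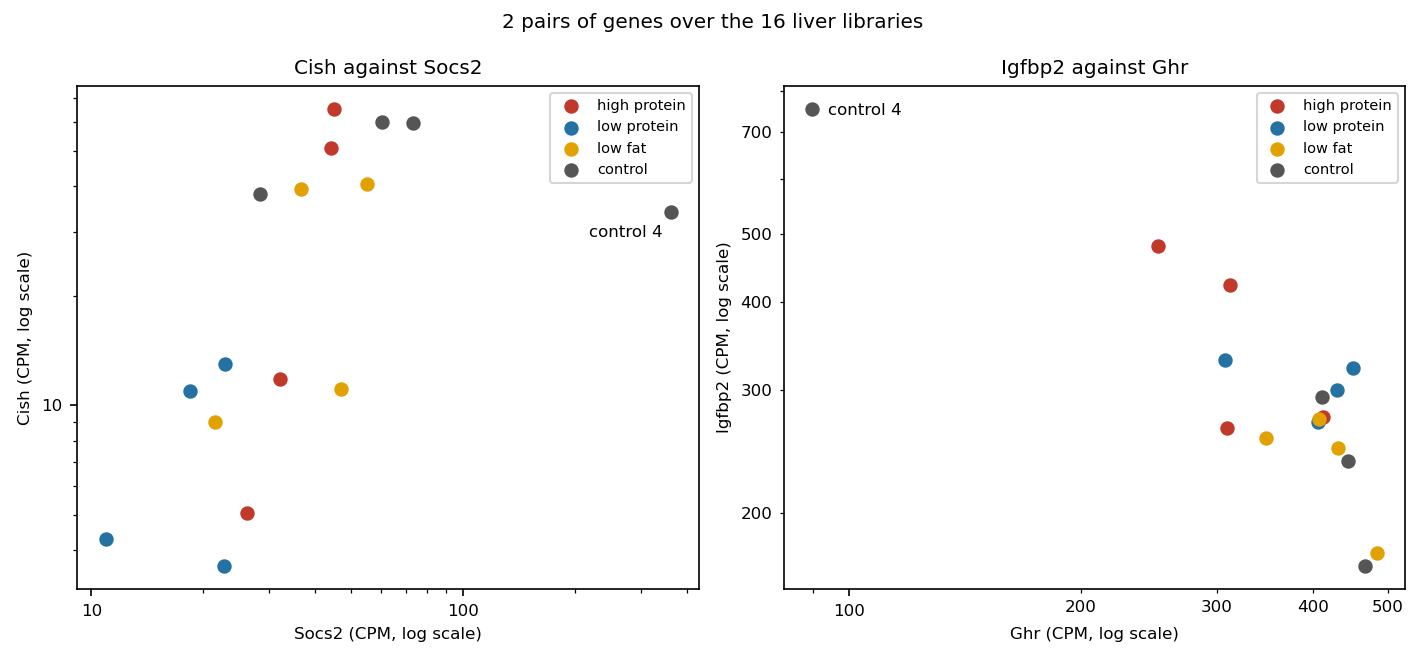
Left, Cish against Socs2, and right, Igfbp2 against Ghr, in CPM on log axes, with 1 point per library coloured by diet. Cish leaves a gap between 13.0 and 34.1 CPM, and control 4 has the highest Socs2 (361 CPM), the highest Igfbp2 (754 CPM) and the lowest Ghr (89.6 CPM).

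Both transducers had their widest difference of the 6 pairs between high protein and low fat. Stat5a (ENSMUSG00000004043.14, chromosome 11, 100859351 to 100885169) had 8.57, 7.81, 9.17 and 8.42 CPM with high protein and 16.0, 15.5, 13.1 and 13.0 CPM with low protein. It had 19.5, 14.6, 16.9 and 9.53 CPM with low fat and 11.3, 7.26, 13.9 and 7.55 CPM in control. All high-protein libraries lay below all libraries of low protein and of low fat, while controls overlapped each of the other diets.

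Stat5a averaged 8.49 ± 0.561 CPM with high protein, 14.4 ± 1.6 CPM on the low-protein diet and 15.2 ± 4.25 CPM on the low-fat diet (SD, n = 4 each). The log2 fold change of high over low protein was -0.76 ± 0.22 (adjusted p = 0.914), and that of high protein over low fat was -0.84 ± 0.22 (adjusted p = 0.384). Libraries that did not overlap with the high-protein diet lower made up 3.47% of all genes against low protein and 3.99% against low fat. Without control 4 the adjusted p of the difference from low fat was 0.0942, and DESeq2 gave 0.0842, the lowest of the alternatives, which ran up to 0.827. Over control, Stat5a was higher with low protein by 0.52 ± 0.22 on the log2 scale and with low fat by 0.60 ± 0.22 (adjusted p = 0.682 and 0.530). Without control 4 these differences were 0.39 ± 0.22 and 0.46 ± 0.22.

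Stat5b (ENSMUSG00000020919.11, chromosome 11, 100780731 to 100850724), the main STAT5 of liver in the growth hormone response, had 39.4, 43.9, 56.8 and 43.9 CPM with high protein and 59.3, 53.8, 50.1 and 54.6 CPM with low protein. It had 93.5, 58.6, 87.5 and 34.8 CPM with low fat and 56.2, 45.3, 39.2 and 70.1 CPM in control. The widest range was within low fat, where 1 library was the highest and another the lowest of all 16. High protein over low fat gave a log2 fold change of -0.58 ± 0.25 (adjusted p = 0.534), with overlap, and the other 5 pairs gave -0.24 to 0.38.

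On the TPM scale Stat5b exceeded Stat5a in every library. The ratio of Stat5b to Stat5a ranged over 5.92 to 7.98 in high-protein libraries, over 4.46 to 5.43 in low-protein libraries, over 4.70 to 6.67 in low-fat libraries and over 3.63 to 12.0 in controls, so that the high- and low-protein ranges did not overlap. These paralogues share 608 windows of 50 bases, 8.21% of those of Stat5a and 11.0% of those of Stat5b, whose reads could be assigned to either. In addition, 1.01% of Stat5a exon bases lie opposite exons of Stat3.

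Ghr (ENSMUSG00000055737.12, chromosome 15, 3317760 to 3583492), the receptor, had 309.6, 412, 312 and 252 CPM with high protein and 451, 308, 430.0 and 407 CPM with low protein. It had 407, 348, 484 and 431 CPM with low fat and 467, 411, 445 and 89.6 CPM in control. Control 4 was the lowest library by a wide margin and the other 3 controls were among the higher ones.

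Over the 6 pairs the Ghr log2 fold changes ran from -0.38 ± 0.35 (high protein over low fat) to 0.24 ± 0.35 (low fat over control). The estimate of high protein over control was -0.14 ± 0.35 (adjusted p = 0.929). Without control 4 it was -0.46 ± 0.16, at an adjusted p of 0.498, the lowest of the alternatives, which ran up to 1.00. Ghr spans 265733 bases and was the only member over 100 kb. Beside its -0.14 the median log2 fold change of the 1945 genes of that length was -0.16 for high protein over control. For high over low protein the values were -0.31 for Ghr and -0.07 for those genes, and for high protein over low fat -0.38 and -0.15.

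The hormone Igf1 (ENSMUSG00000020053.18, chromosome 10, 87858265 to 87937042) was the steadiest of the 10 genes. It had 600.0, 649, 531 and 499 CPM with high protein and 490.4, 461, 528 and 485 CPM with low protein. It had 454, 429, 493 and 531 CPM with low fat and 587, 634, 448 and 568 CPM in control. All diets overlapped, and control 4, at 568 CPM, was inside the range of the other controls although Ghr and Socs2 were not. That position depends on the scaling, since control 4 had the lowest TMM factor of all libraries (0.778). In TPM, which takes no TMM factor, its Igf1 (107 TPM) lay below the other controls (115 to 144 TPM).

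Mean Igf1 was 569.6 ± 67.8 CPM on high protein, 491 ± 27.9 CPM on low protein, 477 ± 45.1 CPM on low fat and 559 ± 79.1 CPM on control (SD, n = 4 each). High protein over control gave a log2 fold change of 0.03 ± 0.13, low protein over control -0.19 ± 0.13 and low fat over control -0.23 ± 0.13. High protein over low fat gave 0.26 ± 0.13 (adjusted p = 0.549), the largest difference of the 6 pairs. The lower Cish and Socs2 of low protein thus stood beside an Igf1 difference of -0.19 ± 0.13, within 2 SE of 0.

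Igfals (ENSMUSG00000046070.9, chromosome 17, 24865997 to 24882010), the acid-labile subunit of the circulating IGF complex, had 102, 104, 72.6 and 68.7 CPM with high protein and 56.7, 69.6, 93.4 and 68.0 CPM with low protein. It had 63.8, 65.5, 87.0 and 79.6 CPM with low fat and 82.2, 97.4, 64.4 and 22.7 CPM in control. All pairs of diets overlapped, control 4 was the lowest library, and the adjusted p of each of the 6 pairs was 0.782 or more. Over control the largest log2 fold change was 0.38 ± 0.32 with high protein, which was 0.09 ± 0.20 without control 4.

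Of the binding proteins, Igfbp4 was the most abundant and was highest with high protein. Igfbp4 (ENSMUSG00000017493.12, chromosome 11, 99041244 to 99054392), whose protein restrains IGF action until it is cleaved by pappalysin, had 2249.6, 2063, 1854 and 2533 CPM with high protein and 1357, 1816, 1579 and 1617 CPM with low protein. It had 1381, 1277, 1226 and 1759 CPM with low fat and 1485, 1886, 1489 and 2107 CPM in control. In CPM the 4 high-protein libraries lay above all libraries of low protein and low fat, and overlapped control. In TPM, which takes no TMM factor, this did not hold. There high protein 3 (858 TPM) was below low protein 2 (957 TPM) and low fat 4 (882 TPM).

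Mean Igfbp4 was 2175 ± 288 CPM on high protein, 1592 ± 188 CPM on low protein, 1411 ± 241 CPM on low fat and 1742 ± 307 CPM on control (SD, n = 4 each). High protein over low fat gave a log2 fold change of 0.62 ± 0.16 (adjusted p = 0.362), for which DESeq2 gave 0.63 and an adjusted p of 0.0400, the lowest of the alternatives, which ran up to 0.827. High over low protein gave 0.45 ± 0.16 (adjusted p = 0.944). In CPM, libraries that did not overlap with high protein higher made up 4.23% of all genes against low fat and 3.15% against low protein. Over control, high protein gave 0.32 ± 0.16 (adjusted p = 0.762), or 0.42 ± 0.16 without control 4, with overlap in both. With the kidney marker sum as a covariate, high protein over low fat gave 0.58.

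Igfbp2 (ENSMUSG00000039323.18, chromosome 1, 72824503 to 72852474), a binding protein that is known to be high in liver when growth hormone action is low, had 264, 275, 424 and 480.4 CPM with high protein and 322, 331, 300.1 and 269.6 CPM with low protein. It had 273, 257, 176 and 248 CPM with low fat and 168, 293, 238 and 754 CPM in control. All pairs of diets overlapped, and control 4 was the highest library, followed by high protein 4 and high protein 3. High protein over control gave a log2 fold change of -0.01 ± 0.35, and without control 4 it gave 0.62 ± 0.23 (adjusted p = 0.502, with 0.502 to 1.00 over the alternatives). For low fat over control the values were -0.61 ± 0.36 (adjusted p = 0.590) and, without control 4, 0.0024 ± 0.22.

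Igfbp3 (ENSMUSG00000020427.11, chromosome 11, 7206086 to 7213923), the main carrier of IGF1 in serum, had 13.2, 18.8, 23.6 and 17.3 CPM with high protein and 16.1, 22.7, 18.3 and 21.0 CPM with low protein. It had 19.9, 18.6, 29.3 and 40.1 CPM with low fat and 20.0, 22.0, 22.3 and 54.4 CPM in control. Apart from control 4 and 2 low-fat libraries, all values lay between 13.2 and 23.6 CPM. High protein over control gave a log2 fold change of -0.70 ± 0.32 (adjusted p = 0.762), which was -0.24 ± 0.24 without control 4. In liver Igfbp3 is known to be made largely outside hepatocytes, and sinusoidal endothelial markers summed to 177 to 265 CPM with high protein and 144 to 273 CPM in control; their part in the result was not tested.

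Among the 45 pairs of members, 3 had a Pearson correlation of log2 CPM over the 16 libraries with a permutation p under 0.05 after adjustment over the pairs, and all 3 were negative. By Spearman's rho 6 pairs did. Libraries of a diet share that diet and all values share the library scaling. Ghr and Igfbp2 gave r = -0.86 (permutation p = 3e-05, adjusted 0.00135) and rho = -0.68 (permutation p = 0.00454). Leaving out control 4 and high protein 4, the libraries farthest from the median of Ghr, gave r = -0.62. After removing diet means r was -0.89 (permutation p within diets 0.0016, adjusted 0.0367), and -0.62 without control 4. The other pair under 0.05 after adjustment by that within-diet test was Cish with Igfals. Its r after removing diet means was 0.51 (permutation p within diets 0.00163, adjusted 0.0367), and 0.79 without control 4. Over the 16 libraries Cish and Igfals gave r = 0.23.

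Stat5a and Igfbp4 gave r = -0.82 (permutation p = 0.0002, adjusted 0.0045) and rho = -0.84 (permutation p = 0.00017). Leaving out control 2 and low fat 1, farthest from the median of Stat5a, gave r = -0.84, and after removing diet means r was -0.70 (permutation p within diets 0.025, adjusted 0.125). Stat5a and Igf1 gave r = -0.79 (permutation p = 0.00032, adjusted 0.0048) and rho = -0.79 (permutation p = 0.00042), with r = -0.73 without the same pair of libraries and -0.64 after removing diet means (permutation p within diets 0.0195, adjusted 0.125).

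The genes most like a member in log2 CPM were ranked by Pearson's r over the 16 libraries among 9925 genes of mean CPM at least 5, as a description with no test. For Ghr they were Cela1 (r = 0.97), Sucnr1 (0.97) and Hsd3b2 (0.97), for which r was 0.85 to 0.86 without control 4. For Socs2 they were Tmx4 (0.94), Larp4 (0.91) and Sf3b3 (0.90), with 0.84, 0.77 and 0.75 without control 4. For Igf1 they were Ogfrl1 (0.84), Gm35570 (0.80) and Ugt2a3 (0.79), with 0.84, 0.81 and 0.86 without control 4. For Igfbp2 they were Mlycd (0.92), Mpc2 (0.91) and Suds3 (0.91), with 0.86, 0.83 and 0.84 without control 4.

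The rest of the pathway was described through 23 further genes of growth hormone, insulin and IGF signalling, of which 22 were in the table and 20 passed the filter. No member of this list was called by edgeR in any pair. Before adjustment 1 of 20 was lower with high protein than in control at p under 0.05 (3.74% of all genes were), namely the receptor adaptor Grb10, at a log2 fold change of -1.08, and 0 of 20 were higher (2.48%). With low protein 1 was higher (2.35% of all genes), Ptpn6 (0.28), a phosphatase best known from blood cells, and 3 were lower (4.73%), namely the stress- and fasting-induced binding protein Igfbp1 (-4.32), the insulin receptor substrate Irs2 (-2.09) and Grb10 (-1.26). With low fat 1 was higher (3.09% of all genes), again Ptpn6 (0.30), and 2 were lower (6.13%), Igfbp1 (-3.80) and Irs2 (-1.71).

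Ptpn6 had 19.0 to 22.3 CPM with low protein, 17.4 to 22.7 CPM with low fat and 15.3 to 18.2 CPM in control. The sum of 6 lymphocyte markers, each detected in every diet, was 2.51 to 5.15 CPM with low protein, 3.26 to 5.30 CPM with low fat and 1.35 to 2.33 CPM in control, without overlap between either diet and control. With high protein this sum was 2.17 to 3.07 CPM, overlapping control. The levels were low, and Cd3d was not detected in control 3 or control 4. The sum of 8 Kupffer cell markers, also detected in every diet, was 204 to 315 CPM with low protein, 230.3 to 369 CPM with low fat and 193 to 234 CPM in control. The part of these cells in the Ptpn6 difference was not tested.

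The median log2 fold change of these 20 genes was -0.34 for high protein over control, -0.12 for low protein over control and 0.25 for low fat over control, beside -0.06, -0.03 and -0.02 for all genes. Low fat also had the highest median kidney marker sum of the diets (1714 CPM), and the part of that sum in these medians was not tested. Without control 4 the medians of the list were 0.0062, 0.03 and 0.22. None of the 20 was then lower than control at p under 0.05 with high protein (4.11% of all genes were), low protein (1.63%) or low fat (3.15%). With high protein 2 were then higher (4.68% of all genes), the phosphatase Ptpn1 (0.24) and Igfbp1, whose log2 fold change was 2.10 without control 4 and -2.52 with it. Ptpn6 was the 1 higher gene with low protein (0.22; 2.02% of all genes) and with low fat (0.23; 2.43%). Igfbp1 had 93.8, 86.4, 188 and 1376 CPM with high protein and 133, 102, 68.1 and 9721 CPM in control. It lay between 60.1 and 269 CPM in all low-protein and low-fat libraries, so that control 4 and high protein 4 were the only 2 libraries above that range. Irs2 showed the same 2 libraries at the top, with 131 CPM in high protein 4 and 489 CPM in control 4.

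Among pairs of altered diets, this list had 1 member at p under 0.05 between high and low protein, Igfbp6 (-1.41; 2.83% of all genes were lower), and none in the other 2 pairs. Without control 4 in the shared fit there were 2 between high and low protein (Irs2 and Igfbp1, both higher), 3 between high protein and low fat (Sirpa lower, Sh2b1 and Insr higher) and 2 between low fat and low protein (Insr lower, Grb10 higher), beside the 11.1%, 17.1% and 5.06% of all genes given above. Igf1r, the IGF1 receptor, had 1.98, 11.4, 5.60 and 13.6 CPM with high protein, 8.37 to 24.7 CPM with low fat, 8.39 to 10.5 CPM with low protein, and 3.14, 3.39, 38.6 and 9.36 CPM in control. Its highest library, control 3, and its lowest, high protein 1, were also the highest and the lowest for the kidney marker sum, whose part in the Igf1r level was not tested.

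**Figure D5:**
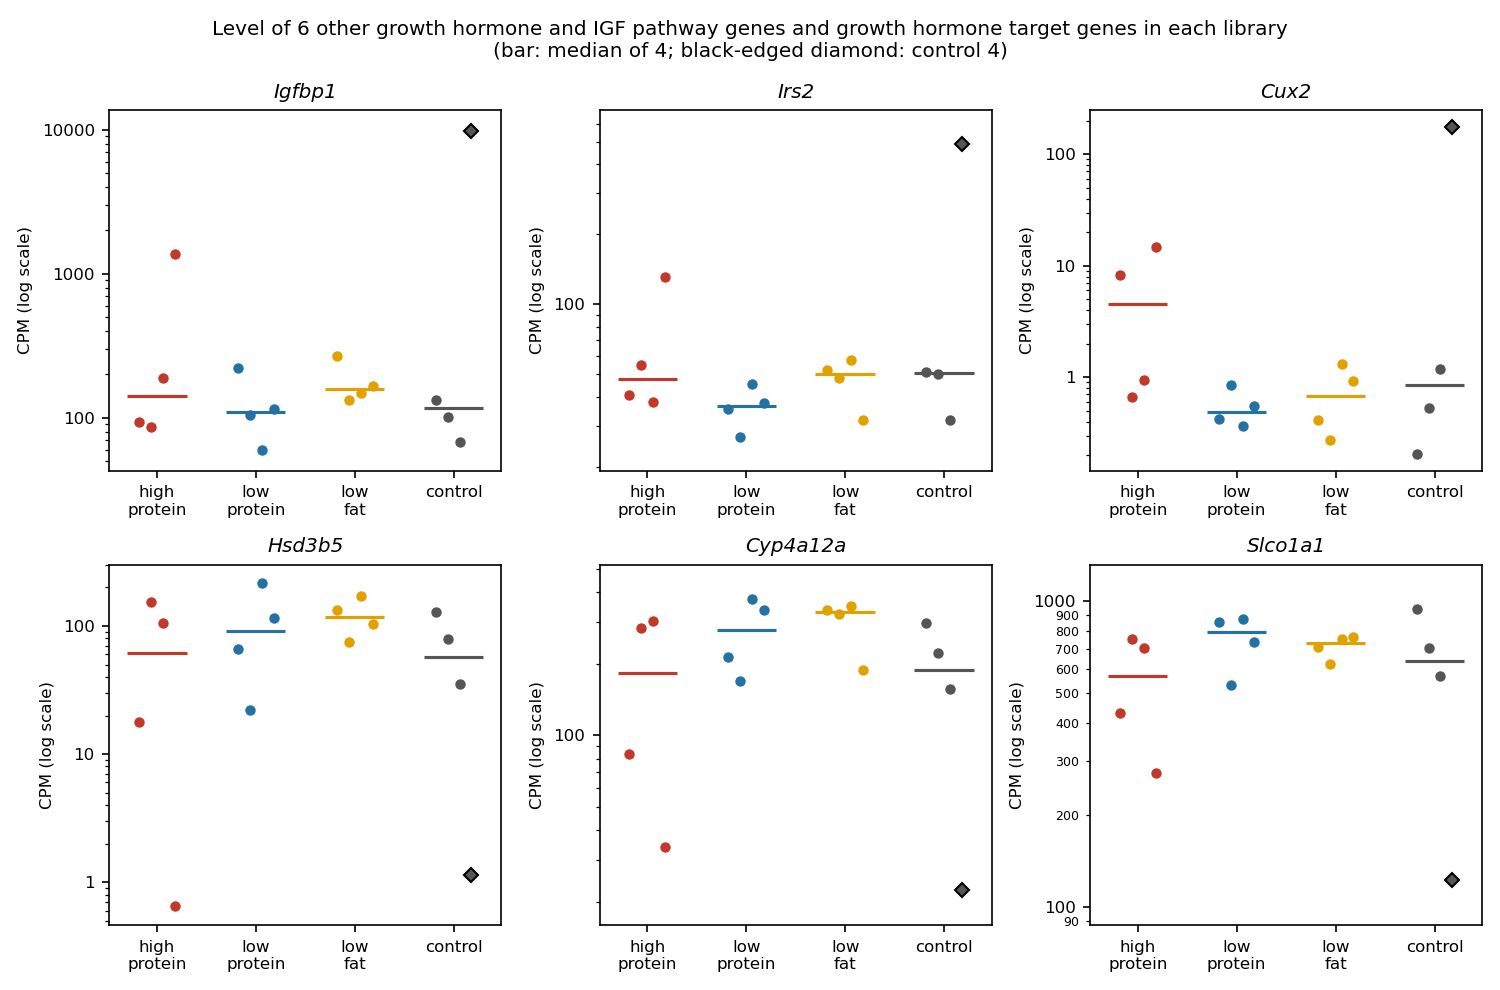
Level of 6 further genes in CPM on a log scale, with 1 point per library and a bar at the median of 4 per diet. Control 4 (black-edged diamond) and high protein 4 are the highest libraries for Igfbp1, Irs2 and Cux2 and the lowest for Hsd3b5, Cyp4a12a and Slco1a1.

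Genes whose liver expression depends on the male or female pattern of growth hormone secretion were described as 2 lists. Of 12 male-biased targets 10 were measured, and none reached p under 0.05 in any pair, beside 2.38% to 9.22% of all genes by pair. Against control, 9 of the 10 male-biased genes were higher in the high-protein group (median log2 fold change 0.17), 8 in the low-protein group (0.38) and 10 in the low-fat group (0.29), while 41.7%, 45.6% and 47.6% of all genes were higher in these comparisons. Without control 4 these medians were -0.17, 0.05 and 0.08. Hsd3b5, a male-typical steroid dehydrogenase, had 17.8, 155, 105 and 0.648 CPM with high protein and 128, 79.8, 35.3 and 1.14 CPM in control. Cyp4a12a, a male-typical fatty acid hydroxylase, had 83.8, 283, 302 and 34.1 CPM with high protein and 298, 222, 157 and 22.3 CPM in control. Slco1a1, a male-typical organic anion transporter, had 429.9, 752, 706 and 274 CPM with high protein and 942, 705, 569 and 122 CPM in control. For each of these genes, control 4 and high protein 4 were the 2 lowest of the 16 libraries.

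Of 14 female-biased targets 12 passed the filter, and their median log2 fold change was -0.28 for high protein over control, -0.43 for low protein over control and -0.74 for low fat over control. Without control 4 these medians, over 11 genes, were 0.69, -0.21 and -0.03. Between altered diets the median was 1.27 for high protein over low fat, with 9 of 12 genes higher (47.0% of all genes). It was 0.38 for high over low protein and -0.11 for low fat over low protein. Before adjustment p was under 0.05 for 1, 0 and 0 of 12, against 9.08%, 5.17% and 2.38% of all genes. Without control 4 these 3 medians were 1.24, 0.28 and -0.13. Then 2, 2 and 0 of 11 genes had p under 0.05, against 17.1%, 11.1% and 5.06% of all. Cux2, a female-typical transcriptional repressor, had 8.20, 0.662, 0.947 and 14.8 CPM with high protein and 0.203, 0.532, 1.18 and 177 CPM in control, and 0.276 to 1.30 CPM in the low-protein and low-fat libraries. Control 4 and high protein 4 were again the 2 highest libraries, with high protein 1 next.

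Cux2 was lower than control at an unadjusted p under 0.05 with low protein (log2 fold change -6.34) and with low fat (-5.97), and Sult3a1 was lower with low fat (-3.18). Of all genes, 4.73% were lower at that level with low protein and 6.13% with low fat. Without control 4 no female-biased gene was lower than control at that level in either comparison, beside 1.63% and 3.15% of all genes. With high protein the Cux2 log2 fold change over control was -2.86 ± 1.52 (adjusted p = 0.762) with all controls and 3.22 ± 0.97 (adjusted p = 0.442) without control 4.

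Side by side, control 4 combined the lowest Ghr (89.6 CPM) and Igfals (22.7 CPM) with the highest Socs2 (361 CPM), Igfbp2 (754 CPM), Igfbp3 (54.4 CPM), Igfbp1 and Cux2 of all 16 libraries, while its Igf1 (568 CPM) and Cish (34.1 CPM) lay within the range of the others. In TPM, however, its Igf1 (107 TPM) lay below the other controls (115 to 144 TPM). High protein 4 was the next lowest in Ghr (252 CPM) and the next highest in Igfbp2 (480.4 CPM), Igfbp1 and Cux2, but its Socs2 (32.2 CPM) and Igfals (68.7 CPM) were inside the range of the other high-protein libraries or next to it. The sum of hepatocyte markers was 98190.4 CPM in high protein 4 and 111378 CPM in control 4, the 2 highest of the 16 libraries. These 2 libraries also had the 2 lowest TMM factors (0.9201 and 0.7778), which raise their CPM. Their rank depends on that scaling and does not show a higher hepatocyte content.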

How the data were processed

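Total liver RNA of 16 mice (4 diets, 4 animals each) was sequenced from directional libraries, and groups were taken from the sample titles. The file the authors deposited holds unnormalized counts of reads for each gene, as whole numbers, beside its exon length. Named in the submitters' processing notes are build GRCm38.p6, edgeR 3.32.1, Subread 1.6.4, featureCounts, STAR 2.7.0f and Trimmomatic 0.39. How strand was treated in counting, and which annotation was used, is not given in the sources used here. Of 54752 genes, 53861 matched GENCODE M21 by identifier and version, which supplied symbols.

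Counts of genes passing filterByExpr (17833) were scaled with TMM factors and fitted with edgeR 4.0.16 (R 4.3.3) quasi-likelihood, with 4 diet means, 16 libraries in 1 fit leaving 12 residual degrees of freedom. Each of 6 pairs of diets, and the 3 diets against control together, had a two-sided test, with Benjamini-Hochberg adjustment over all genes at 0.05. TPM was computed from counts and the deposited exon length. Correlations over 45 pairs of members used log2 CPM (prior count 2) and two-sided tests with 100000 permutations. No 2 libraries of a diet agreed within sampling noise (chi-square per degree of freedom 44.8 or more). The labels do not say which animals shared a litter or cage, so a p-value here measures only how these samples vary.

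The members and lists were chosen with earlier results of these data known. All 10 members are described in each comparison where a value bears on it, of each list up to 3 genes with the smallest p in a comparison may be named (1 such gene is not reported here), and likeness is named for Ghr, Igf1, Socs2 and Igfbp2. Igf1r, Hsd3b5, Cyp4a12a, Slco1a1, Ntrk2, Hao2 and Prom1 were named after their values were seen. Alternatives were RLE and upper-quartile factors, 2 other low-count filters, DESeq2 1.42.0, limma 3.58.1 voom with quality weights, a replicate block, the kidney marker sum as a covariate, the compared diets alone, and each library left out in turn. Jak2, Elovl3, Gstp1, Cyp17a1, Tf, Slc22a6 and Slc22a12 were not analysed here. RefSeq supplied promoter sequence.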

Additional observations from a re-analysis of the deposited data

Results flagged for a closer look

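In 2 of 40 combinations of a gene and a diet, 1 library stood apart from the other 3 by Dixon's ratio of gap to range on log2 CPM, and chance gives about 1 in 20. Both involve control 4. Its Ghr was 89.6 CPM, against 411 to 467 CPM in the other 3 controls (gap over range 0.922). Its Igfbp3 was 54.4 CPM, against 20.0 to 22.3 CPM in the others (gap over range 0.892).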

How the results depend on the processing

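The edgeR fit called 0 genes in each of the 7 tests. DESeq2 called 1 gene for high protein over control, 10 for low protein over control, 4 for low fat over control, 25 for high over low protein, 81 for high protein over low fat and 79 over all diets, of which 1 member (Socs2) was called for low protein over control, 1 (Igfbp4) for high protein over low fat and 1 (Socs2) over all diets. For high protein over low fat, voom with quality weights called 1 gene and the compared diets alone 16. Leaving out 1 library gave 0 to 109 genes for low fat over control (109 without control 3), 0 to 2 for high over low protein, 0 to 19 for high protein over low fat (19 without control 4), 0 to 1 over all diets and 0 in the other 3 tests, with 0 members throughout. Of 1500 alternative log2 fold changes of members, 51 changed sign, 49 of them from estimates within 1 SE of 0, and the other 2 were Igfbp2 with low fat over control, at 0.0024 without control 4 (range over left-out libraries -0.85 to 0.0024) and 0.10 with voom. The cause was not tested. Replicate numbers did not pair the animals: deviations of same-numbered libraries correlated at -0.28 to 0.39 (median 0.03), and a library matched its own number best in 13 of 48 cases. With the replicate block the fit called 0 genes in all 7 tests, and 3, 3, 3, 4, 2 and 1 members reached p under 0.05 in the 6 pairs, against 2, 3, 2, 3, 3 and 1 without it. With 1 of the 15 libraries other than control 4 left out, 1 to 3, 2 to 4, 1 to 5, 2 to 3, 2 to 4 and 0 to 2 members did. Depth was not limiting for the members, each with at least 132 counts in every library.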
